A study of Sus scrofa with 12 samples.

Results

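The heat shock proteins and chaperonins are the genes of protein folding, and 55 of them were followed here through the loss of the specialised state in cultured pig cells. A gene belonged to the set when its probe set carried 1 annotation symbol and that symbol was an HSP, DNAJ, numbered CCT, TCP1 or numbered BAG name. HSPG2, a matrix proteoglycan, and HSPBP1, whose symbol has no digit after HSPB, were left out. The 55 genes stand among 6765 named genes on the array and are read by 92 of 23999 tested probe sets, groups of short probes that each give 1 value. Each gene is represented by its probe set with the highest mean over the 12 arrays. All 55 were measured and none was removed by a filter on low values.

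The data compare 4 cell preparations from pig. MA are mature adipocytes taken from fat tissue, and DFAT are the cells that grew from such adipocytes after ceiling culture, in which floating fat cells settle on the upper wall of a filled vessel. GC are granulosa cells, the support cells of the oocyte, taken from ovarian follicles, and DFOG are granulosa cells that had dedifferentiated in culture. DFAT and DFOG were both harvested at semiconfluence, and the labels give no strain, age, sex or treatment for any group. Each group had 3 arrays that the labels call biological replicates, without naming animals or cultures, so p-values measure only the spread between these samples, which may be technical. The study asked which genes and functions go up or down when each cell type dedifferentiates. Isolated cells were set against cultured cells in both lineages, so an effect of culture as such cannot be told apart from dedifferentiation.

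Chaperones bind unfolded or partly folded proteins. HSP70 proteins hold short stretches of a client and work in cycles set by DNAJ partners, which deliver clients, and by nucleotide exchange factors, which include the HSP110 and several BAG proteins. HSP90 proteins act later on nearly folded clients such as kinases and steroid receptors, the chaperonins CCT and HSP60 enclose a client in a barrel, and small heat shock proteins hold unfolded clients without using ATP. Some members are made at all times, while others are induced through the heat shock factor HSF1 when proteins unfold.

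The values are log2 levels, so a difference of 1 is a doubling. Levels of different probe sets are not comparable, and only changes of the same probe set are given. No detection calls are given, so where a group reads near the bottom of the scale its level may be background, and a fold against it may be a lower bound. Every change is relative to the rest of the RNA on the array, and fewer cells of a kind cannot be told apart from less RNA per cell. DFOG replicates 2 and 3 were nearly identical, with an SD of their differences of 0.07 over all probe sets against 0.31 to 0.62 in the 11 other pairs, and were averaged to 1 sample, so DFOG has n = 2 in every test and mean. Of the defining markers, the adipocyte list (6 of 8 genes measured) averaged 12.61 to 12.71 in MA and 6.76 to 8.04 in DFAT, and the granulosa list (10 of 10) averaged 9.80 to 10.07 in GC and 6.34 to 6.42 in DFOG. The macrophage list (9 of 12) averaged 5.77 to 6.76 in MA against 4.19 to 4.67 on all other arrays, and the smooth muscle and myofibroblast list (6 of 7) averaged 6.35 to 6.79 in the isolated cells, 12.84 to 13.39 in DFAT and 12.01 to 12.48 in DFOG. For actin, the 3′ control probe set read above the 5′ one by 1.88 ± 0.52 in MA, 0.61 ± 0.33 in DFAT, 1.35 ± 0.55 in GC (SD, n = 3 each) and 0.39 ± 0.33 in DFOG (SD, n = 2), a gap that widens as RNA gets shorter. Apart from the fits with this gap as a covariate, the part of these in the results was not tested.

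About as many chaperone genes rose as fell when adipocytes became DFAT, and more rose than fell when granulosa cells became DFOG. Between MA and DFAT, 14 of the 55 rose, 12 fell and 29 did not pass the test (limma, adjusted p under 0.05). Among all named genes 41.1% passed in that comparison, 20.7% upwards and 20.4% downwards, and among all probe sets 32.1%. Between GC and DFOG, 13 rose, 4 fell and 38 did not pass, where 30.6% of named genes passed, 17.3% upwards and 13.4% downwards, and 24.9% of probe sets. The median member changed by 0.16 in DFAT and 0.24 in DFOG on the log2 scale, beside -0.02 and 0.03 over all named genes. The median size of change regardless of direction was 0.62 and 0.53, beside 0.47 and 0.41. The count of members that passed is thus near that of all named genes in DFOG and somewhat above it in DFAT. Among probe sets at or above the median level, which hold most of the 55, 23 members passed in DFAT, beside 48.3% of those probe sets. In DFOG 13 members kept their call there and HSPA14 gained it, beside 37.3%. The excess in DFAT is thus not seen among probe sets of higher level. The splits into rises and falls depend on the scaling. With each array centred on its spiked poly-A control transcripts, 27 members were higher and 4 lower in DFAT, and 5 were higher and 16 lower in DFOG. Over all probe sets, the median change went from -0.07 to 0.56 in the first comparison and from -0.02 to -0.81 in the second, and 34.3% and 43.4% passed. With the actin gap as a covariate, 14 members passed in DFAT, 3 of them upwards, and 11 in DFOG, 6 of them upwards. Over all probe sets 21.6% and 18% passed. Without DFOG replicate 1, which leaves 1 DFOG sample, fewer members and a smaller share of all probe sets passed in DFOG.

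**Figure D1:**
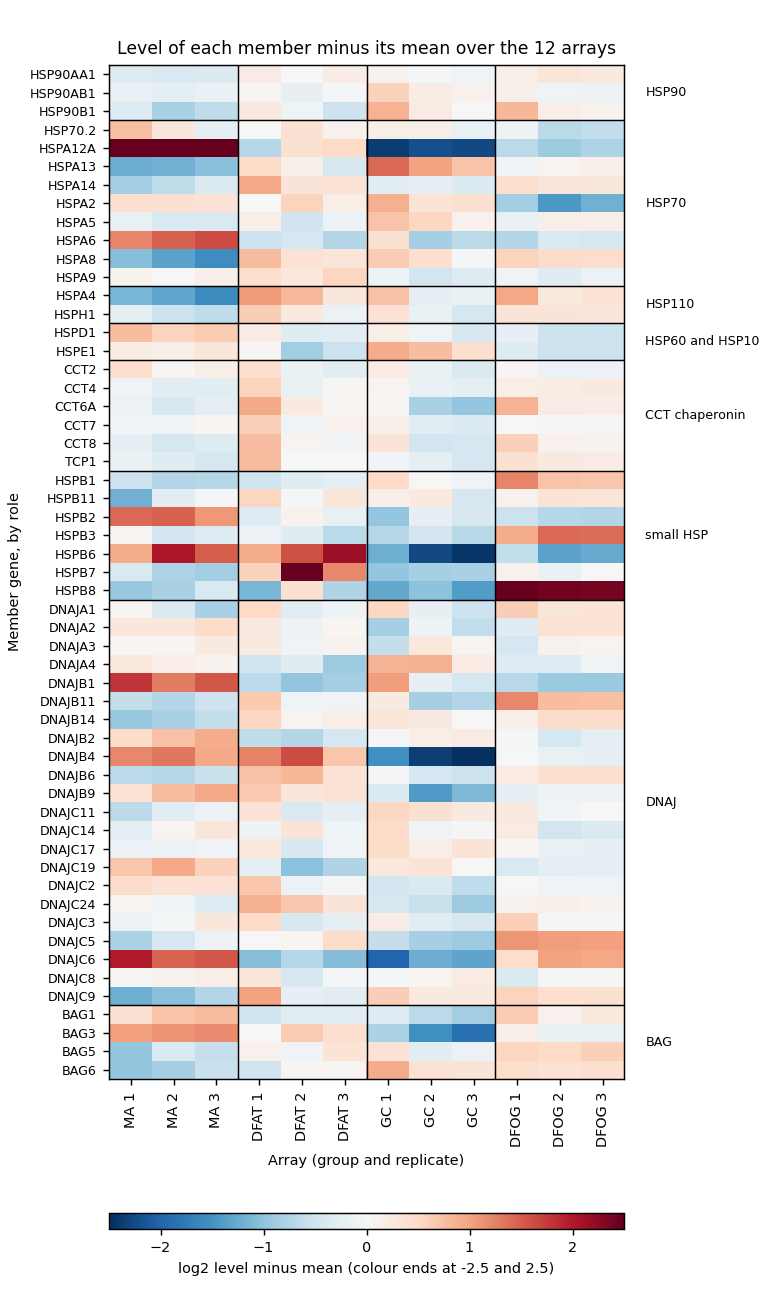
Log2 level of each of the 55 members on each of the 12 arrays, minus the member's mean over the arrays, with members as rows grouped by role and arrays as columns by group. The colour scale ends at -2.5 and 2.5. HSPA12A is far above its mean on the MA arrays and far below on the GC arrays, HSPB8 is highest on the DFOG arrays, and rows of the CCT chaperonin are pale throughout.

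The HSP70 proteins are the central chaperones of the cytosol, endoplasmic reticulum and mitochondrion. Of 9 measured, 3 rose and 2 fell in DFAT, and 1 rose and 2 fell in DFOG. HSPA8, the constitutive cytosolic HSP70 also known as HSC70, read 11.19, 10.91 and 10.69 in MA and 13.03, 12.61 and 12.54 in DFAT. Every DFAT array was above every MA array, and the change was 1.80 ± 0.21 (SE), a 3.47-fold rise (adjusted p = 6.13e-05). In the granulosa lineage it read 12.88, 12.67 and 12.22 in GC and 12.81, 12.70 and 12.69 in DFOG, ranges that overlap, with a change of 0.16 ± 0.24 (SE; adjusted p = 0.724). On this probe set MA stood apart, and DFAT, GC and DFOG lay close together. The change in DFAT exceeded that in DFOG by 1.63 ± 0.32 (SE; adjusted p = 0.00337). HSPA8 has 4 probe sets, all of which rose in DFAT, by 1.80 to 2.48, and all of which passed the test of the difference between lineages, at 1.49 to 1.68. On the 3 others GC lay between MA and DFAT, with means of 6.63, 6.32 and 6.10 in GC against 7.90, 7.05 and 7.06 in DFAT, and the first of them also rose in DFOG, by 0.79 (adjusted p = 0.0175).

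HSPA4, an HSP110 protein that recharges HSP70 with nucleotide, was also lowest in MA. It read 8.80, 8.64 and 8.35 in MA, 11.00, 10.76 and 10.23 in DFAT, 10.67, 9.69 and 9.77 in GC and 10.92, 10.19 and 10.29 in DFOG. The MA arrays were again the lowest without overlap. The rise in DFAT was 2.07 ± 0.30 (SE), or 4.20-fold (adjusted p = 0.000281), and the change in DFOG was 0.53 ± 0.34 (SE; adjusted p = 0.311). The difference between the lineages, 1.53 ± 0.45 (SE; adjusted p = 0.0299), did not pass when any one of MA 2, MA 3, DFAT 1 or DFAT 2 was left out (1.37 to 1.56, adjusted p = 0.0563 to 0.0712). HSPA4 has 2 other probe sets, and 1 of them rose in DFAT by the test. The first averaged 8.10 in MA, 8.86 in DFAT, 9.36 in GC and 9.30 in DFOG, a smaller rise that left DFAT below GC. The second averaged 3.51, 3.72, 3.44 and 3.52 in the same order and may be background. HSPH1, the other HSP110 protein, rose in DFAT by 0.71 ± 0.24 (SE, limma, adjusted p = 0.0416) and changed by 0.40 in DFOG. Its call was lost with any one of 6 arrays left out, namely MA 2, MA 3, DFAT 1, DFAT 2, GC 2 and DFOG 1 (0.52 to 0.71, adjusted p = 0.0554 to 0.137), and with the actin covariate.

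HSPA13, a microsomal HSP70 known as STCH, moved in opposite directions in the 2 lineages. It rose from 8.66, 8.71 and 8.86 in MA to 10.36, 10.04 and 9.50 in DFAT, a change of 1.22 ± 0.24 (SE; adjusted p = 0.00201). It fell from 11.33, 10.91 and 10.61 in GC to 9.84, 9.98 and 10.04 in DFOG, a change of -1.03 ± 0.26 (SE; adjusted p = 0.0145). Groups did not overlap in either lineage, and the cultured cells of both origins lay close to each other, at 9.97 ± 0.44 (SD, n = 3) and 9.92 ± 0.12 (SD, n = 2). The fall in DFOG was not called without DFOG 1 (-0.94, adjusted p = 0.109), while the difference between lineages, 2.25 ± 0.35 (SE; adjusted p = 0.000874), passed under every alternative run. HSPA14, a ribosome-linked HSP70, rose in DFAT by 1.16 ± 0.20 (SE; adjusted p = 0.000834), from 7.43, 7.64 and 7.92 to 9.25, 8.60 and 8.64, and changed by 0.63 in DFOG (adjusted p = 0.0584). The actin covariate ended the DFAT calls of HSPA13 and HSPA14.

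HSPA12A, a distant HSP70 relative, had the largest change in DFAT of the 55 members. It read 9.09, 9.22 and 9.17 in MA, 5.44, 6.53 and 6.65 in DFAT, 3.79, 3.97 and 3.91 in GC and 5.49, 5.27 and 5.39 in DFOG. All MA arrays were above all others and all GC arrays below all others, and the cultured groups overlapped in between. It fell by 2.95 ± 0.27 (SE) on the log2 scale in DFAT, 7.74-fold (adjusted p = 7.94e-06), and rose by 1.52 ± 0.30 (SE) in DFOG, 2.88-fold (adjusted p = 0.00312). The changes differed by -4.48 ± 0.40 (SE; adjusted p = 1.78e-05). The GC level may be background, so the fold in DFOG may be a lower bound. The rise in DFOG was not called with arrays centred on poly-A controls.

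Other HSP70 genes changed in 1 lineage by the test. HSPA2, a form best known from the testis, read 10.25, 9.69 and 9.76 in GC and 8.50, 7.92 and 8.16 in DFOG, a fall of 1.63 ± 0.23 (SE) on the log2 scale (adjusted p = 0.000343). It read 9.75, 9.74 and 9.72 in MA and 9.34, 9.90 and 9.52 in DFAT, which overlap, and the difference between the lineages was 1.48 ± 0.31 (SE; adjusted p = 0.0051). HSPA6, a strictly stress-induced HSP70, read 6.26, 6.53 and 6.69 in MA and 4.51, 4.63 and 4.31 in DFAT. The fall was 2.01 ± 0.28 (SE) on the log2 scale (adjusted p = 0.000208), and MA was the only group above the others on every array. Its levels in GC, at 5.42, 4.23 and 4.37, overlapped DFOG, at 4.33, 4.67 and 4.63, and the difference between lineages was -1.82 ± 0.42 (SE; adjusted p = 0.00867).

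Neither HSPA5, the endoplasmic reticulum HSP70 known as BiP, nor HSPA9, the mitochondrial HSP70 known as mortalin, passed in either lineage. HSPA5 changed by 0.16 ± 0.21 (SE) in DFAT and -0.47 ± 0.24 (SE) in DFOG, and HSPA9 by 0.34 ± 0.15 (SE) and 0.14 ± 0.16 (SE). HSP70.2, for which RefSeq lists the synonyms HSPA1A and HSPA1B, is the classic heat-inducible HSP70, and its result depends on the probe set. The one with the highest mean read 11.72, 11.25 and 10.74 in MA, 10.98, 11.34 and 11.07 in DFAT, 11.12, 11.11 and 10.78 in GC and 10.84, 10.30 and 10.34 in DFOG, with changes of -0.11 and -0.42 that did not pass. Both other probe sets fell in both lineages. The first went from 11.49 ± 0.12 (SD, n = 3) in MA to 10.07 ± 0.12 (SD, n = 3) in DFAT, a change of -1.41 (adjusted p = 2.76e-05), and from 11.73 ± 0.17 (SD, n = 3) in GC to 9.89 ± 0.14 (SD, n = 2) in DFOG, a change of -1.84 (adjusted p = 1.36e-05). The second changed by -0.84 (adjusted p = 0.0364) and -1.38 (adjusted p = 0.00659).

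**Figure D2:**
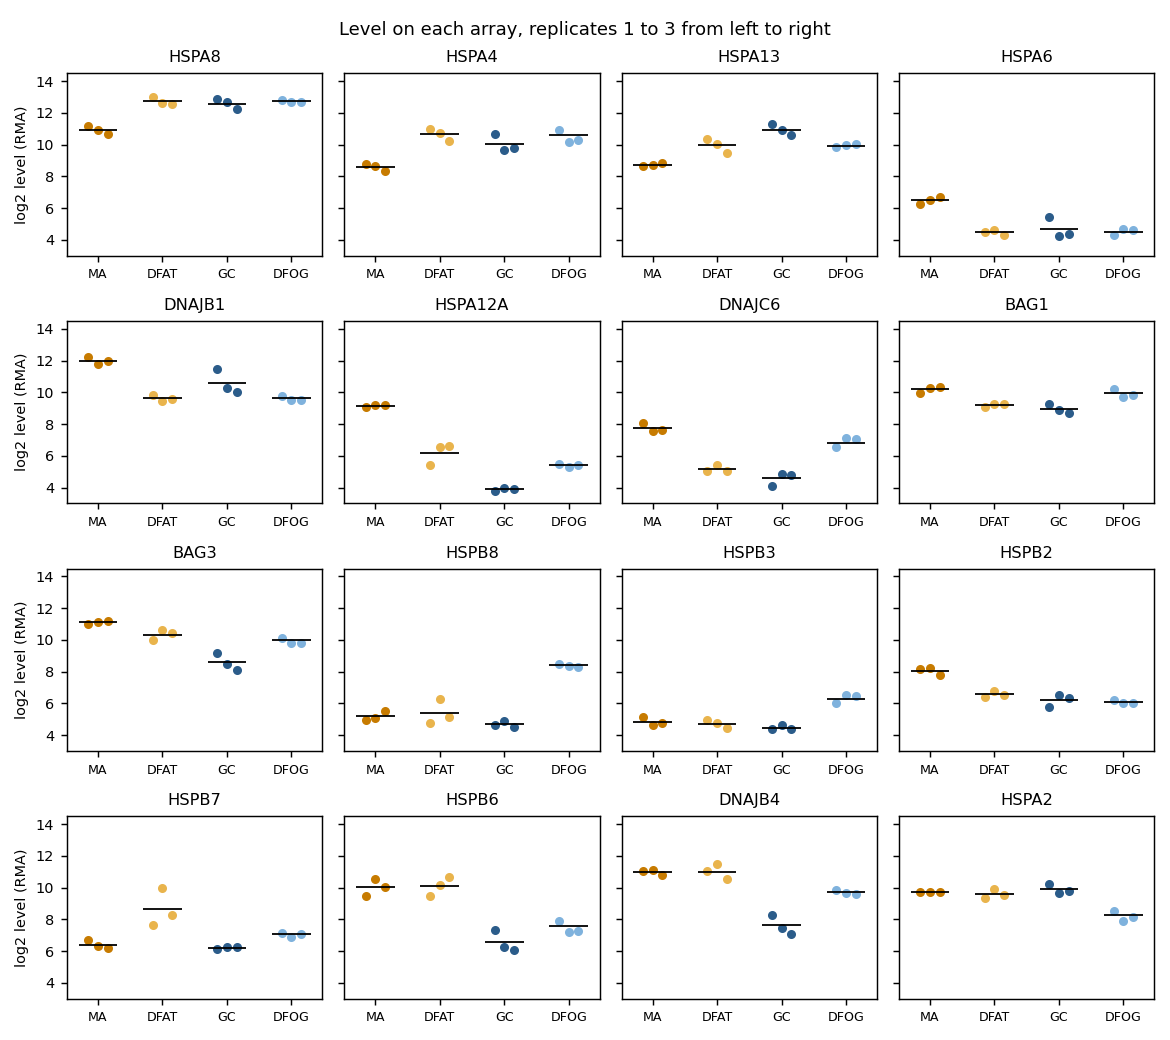
Log2 level of 16 members on each array, 1 panel a gene, with groups MA, DFAT, GC and DFOG along the horizontal axis, replicates 1 to 3 as points from left to right and the group mean as a line. HSPA8 and HSPA4 are lowest in MA, HSPA13 reaches 9.97 in DFAT and 9.92 in DFOG from opposite sides, and HSPB8 and HSPB3 are higher in DFOG than in the other groups.

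Of the 3 HSP90 genes, 1 rose in DFAT and none passed in DFOG. HSP90AA1, the inducible cytosolic HSP90, read 12.93, 12.87 and 12.89 in MA and 13.45, 13.25 and 13.43 in DFAT, a rise of 0.48 ± 0.13 (SE), or 1.40-fold (adjusted p = 0.0164). The groups did not overlap, but the call was lost without MA 2 or DFAT 3 (0.46 to 0.47, adjusted p = 0.051 to 0.0526) and with the actin covariate. Its 5 probe sets disagree. A further one fell in DFAT, from 10.61 ± 0.35 to 9.23 ± 0.19 (SD, n = 3 each; -1.38, adjusted p = 0.0022), 3 did not pass, and the mean over all 5 changed by -0.20 (adjusted p = 0.363). HSP90AB1, the constitutive cytosolic form, changed by 0.13 ± 0.16 (SE) in DFAT and -0.28 ± 0.18 (SE) in DFOG. HSP90B1, the endoplasmic reticulum form known as GRP94, changed by 0.46 ± 0.28 (SE) and 0.12 ± 0.31 (SE). None of these 4 values passed, and groups overlapped in each.

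**Figure D3:**
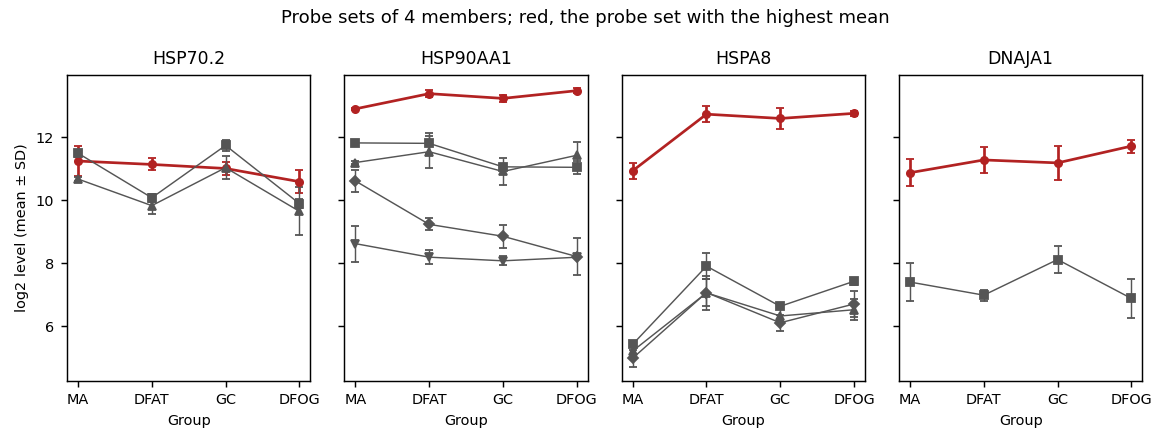
Group means ± SD on the log2 scale of every probe set of HSP70.2, HSP90AA1, HSPA8 and DNAJA1, with the probe set of highest mean, which represents the gene, in red. The 4 HSPA8 probe sets all rise from MA to DFAT, while for HSP70.2 both grey probe sets fall in each lineage and the red one changes by -0.11 and -0.42.

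The DNAJ genes, the largest group with 22 members, code for HSP40 co-chaperones that bring clients to HSP70. In DFAT 5 rose and 5 fell, with a median change of -0.03. In DFOG 6 rose and 1 fell, with a median of 0.28 that became -0.50 with arrays centred on poly-A controls. DNAJB1, the heat-inducible cytosolic HSP40, read 12.23, 11.75 and 12.002 in MA and 9.81, 9.47 and 9.60 in DFAT. It fell by 2.37 ± 0.33 (SE) on the log2 scale, 5.17-fold (adjusted p = 0.000186). It read 11.50, 10.25 and 10.004 in GC and 9.76, 9.53 and 9.52 in DFOG, and although the groups did not overlap, the change of -0.94 ± 0.36 (SE) did not pass (adjusted p = 0.086). GC replicate 1 stood well above the other GC arrays.

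DNAJC6, or auxilin, which strips clathrin from vesicles together with HSC70, moved in opposite directions. It read 8.09, 7.56 and 7.65 in MA and 5.05, 5.40 and 5.03 in DFAT, a fall of 2.61 ± 0.24 (SE) on the log2 scale, 6.10-fold (adjusted p = 9.99e-06). It read 4.13, 4.87 and 4.79 in GC and 6.54, 7.10 and 7.06 in DFOG, a rise of 2.22 ± 0.27 (SE), 4.66-fold (adjusted p = 0.000125). The GC level may be background, so the fold of this rise may be a lower bound. No arrays overlapped in either lineage. The difference between the changes, -4.83 ± 0.37 (SE; adjusted p = 5.32e-06), was the largest among the 55 members.

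DNAJB4, a type II HSP40 of the cytosol, rose in DFOG only by the test. It read 11.02, 11.14 and 10.78 in MA and 11.06, 11.46 and 10.52 in DFAT, with a change of 0.03 ± 0.31 (SE). It read 8.29, 7.47 and 7.08 in GC and 9.84, 9.63 and 9.62 in DFOG, a rise of 2.12 ± 0.34 (SE), 4.34-fold (adjusted p = 0.000892), and the lineages differed by -2.08 ± 0.46 (SE; adjusted p = 0.00682). DNAJC5, the cysteine string protein of secretory vesicles, rose in both lineages. It read 7.11, 7.48 and 7.76 in MA and 7.92, 7.94 and 8.36 in DFAT (0.62 ± 0.20, SE; adjusted p = 0.0308). It read 7.31, 7.08 and 6.99 in GC and 9.003, 8.94 and 8.92 in DFOG (1.84 ± 0.22, SE; adjusted p = 0.000101). The rise was 1.22 smaller on the log2 scale in DFAT than in DFOG, a difference of -1.22 ± 0.29 (SE; adjusted p = 0.0113). The call in DFAT was lost without MA 1, MA 2 or DFAT 3 (0.45 to 0.64, adjusted p = 0.0697 to 0.115) and with the actin covariate, and the call in DFOG was kept under every alternative run.

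Among the remaining DNAJ genes that rose in DFAT were DNAJB6, a suppressor of protein aggregation (9.51, 9.44 and 9.60 in MA, 10.88, 11.00 and 10.50 in DFAT; 1.28 ± 0.18, SE; adjusted p = 0.000269), and DNAJC9, a histone co-chaperone (5.83, 6.0004 and 6.32 against 8.06, 6.85 and 6.79; 1.18 ± 0.30, SE; adjusted p = 0.0104). DNAJB14, anchored in the endoplasmic reticulum membrane, rose by 1.03 ± 0.18 (SE; adjusted p = 0.000932), from 7.54, 7.68 and 7.89 to 8.997, 8.55 and 8.64, and differed between the lineages by 0.90 (adjusted p = 0.0302). That difference was lost without MA 1, MA 2, DFAT 1, GC 1, GC 2 or DFOG 1 (0.75 to 0.89, adjusted p = 0.0521 to 0.139). DNAJC24, which serves diphthamide synthesis, rose by 0.75 in DFAT (adjusted p = 0.0115) and 0.73 in DFOG (adjusted p = 0.0305). Each DFAT array was above each MA array in all 4 of these genes on the representing probe set. The second probe set of DNAJB14 averaged 7.43 in MA and 6.99 in DFAT. The 3 others of DNAJB6 averaged 8.81 in MA and 9.33 in DFAT, 7.78 and 7.36, and 7.39 and 6.98. None of these further probe sets passed in DFAT. The actin covariate ended the DFAT calls of DNAJC9, DNAJB14 and DNAJC24.

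Of the DNAJ genes that fell in DFAT, DNAJC19, part of the mitochondrial import motor, went from 9.33, 9.60 and 9.22 to 8.39, 7.62 and 7.89 (-1.42 ± 0.21, SE; adjusted p = 0.00028). DNAJB2, a co-chaperone that sorts ubiquitinated clients, went from 7.47, 7.74 and 7.94 to 6.36, 6.28 and 6.57 (-1.32 ± 0.17, SE; adjusted p = 0.000116). Neither passed in DFOG, at -0.51 and -0.29. DNAJB2 differed between lineages by -1.02 (adjusted p = 0.0131), a call lost without DFOG 1 (-0.87, adjusted p = 0.0743). DNAJA4, a type I HSP40, fell in both lineages, by -0.74 (adjusted p = 0.0205) and -0.91 (adjusted p = 0.0161). It read 7.59, 7.48 and 7.41 in MA and 6.83, 7.02 and 6.40 in DFAT. In the granulosa lineage it read 8.16, 8.20 and 7.52 in GC and 6.997, 6.99 and 7.21 in DFOG. There was no overlap within a lineage. The second DNAJA4 probe set averaged 5.92 in MA, 5.55 in DFAT, 5.57 in GC and 5.58 in DFOG, and was called in neither lineage. The DFAT call was lost without MA 1, MA 2 or DFAT 3 (-0.75 to -0.57, adjusted p = 0.0541 to 0.0806) and with the actin covariate, and the DFOG call without GC 2 or DFOG 1 (-0.86 to -0.79, adjusted p = 0.0595 to 0.108).

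In DFOG, DNAJB11, the endoplasmic reticulum HSP40 that assists BiP, rose from 9.43, 8.37 and 8.47 in GC to 10.41, 9.98 and 9.96, a change of 1.43 ± 0.33 (SE; adjusted p = 0.00801) that was not called without DFOG 1 (1.21, adjusted p = 0.0888). DNAJB6 rose from 10.14, 9.72 and 9.62 to 10.37, 10.57 and 10.56 (0.64 ± 0.21, SE; adjusted p = 0.0424). That call was lost without any one of MA 1, MA 2, MA 3, GC 2, GC 3 or DFOG 1 (0.54 to 0.74, adjusted p = 0.0548 to 0.136). The rise of DNAJC24 was lost without GC 2, GC 3 or DFOG 1 (0.59 to 0.76, adjusted p = 0.0609 to 0.135), and the actin covariate ended all 3 of these DFOG calls. The remaining DNAJ genes passed in neither lineage. They included DNAJA1 (0.40 and 0.53), whose second probe set fell in DFOG by -1.23 (adjusted p = 0.0308), DNAJA2 (-0.29 and 0.55), DNAJB9 (-0.25 and 0.76) and DNAJC3 (-0.09 and 0.45).

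Both genes of the mitochondrial chaperonin fell in DFAT, and HSPE1 also in DFOG, but the DFAT calls depend on the scaling and, for HSPE1, on single arrays. HSPD1, or HSP60, read 13.29, 13.08 and 13.16 in MA and 12.72, 12.23 and 12.26 in DFAT, a change of -0.78 ± 0.20 (SE; adjusted p = 0.00994). Its partner HSPE1, or HSP10, the lid of the barrel, read 12.64, 12.59 and 12.74 in MA and 12.48, 11.59 and 11.91 in DFAT (-0.67 ± 0.22, SE; adjusted p = 0.0411). It read 13.37, 13.22 and 12.86 in GC and 12.13, 11.93 and 11.94 in DFOG (-1.12 ± 0.25, SE; adjusted p = 0.00677). No arrays overlapped in these 3 comparisons, whereas HSPD1 overlapped between GC, at 12.69, 12.41 and 12.12, and DFOG, at 12.31, 12.01 and 11.99, with a change of -0.25 ± 0.22 (SE). The DFAT call of HSPE1 was lost without any one of MA 1, MA 2, MA 3, DFAT 2, DFAT 3, GC 2 or DFOG 1 (-0.70 to -0.46, adjusted p = 0.0524 to 0.154) and with the actin covariate, and its DFOG call was kept under every alternative run. With poly-A centring neither DFAT call of these genes held. Among the 6 measured members that act in mitochondria, which also include HSPA9, DNAJA3, DNAJC11 and DNAJC19, 3 fell and none rose in DFAT, and 1 fell and none rose in DFOG, with medians of -0.35 and -0.27.

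CCT, also named TRiC, is the cytosolic chaperonin that folds actin and tubulin. None of its 6 measured subunits passed in DFAT, and CCT6A alone rose in DFOG. The changes in DFAT ran from -0.21 in CCT2 to 0.67 in CCT6A, with 0.24 in CCT7, 0.36 in CCT4, 0.57 in CCT8 and 0.57 in TCP1. In DFOG they ran from 0.07 in CCT2 through 0.14 in CCT7, 0.30 in CCT4, 0.54 in CCT8 and 0.55 in TCP1 to 1.12 in CCT6A. The medians were 0.46 and 0.42, and with poly-A centring they became 1.09, with 5 subunits called, and -0.37. TCP1 read 11.32, 11.17 and 11.06 in MA, 12.27, 11.49 and 11.49 in DFAT, 11.42, 11.23 and 11.05 in GC and 11.86, 11.70 and 11.69 in DFOG. Its groups did not overlap in either lineage, but with adjusted p = 0.0671 and 0.133 it did not pass. CCT6A read 10.95, 10.12 and 9.95 in GC and 11.79, 11.14 and 11.12 in DFOG (1.12 ± 0.34, SE; adjusted p = 0.0321), a call lost without GC 2, GC 3 or DFOG 1 (0.79 to 1.01, adjusted p = 0.0962 to 0.286) and with the actin covariate. DFAT replicate 1 was the highest DFAT array for all 6 subunits, and it was the highest of its group in 34 of the 55 members. GC 1 was the highest of its group in 40 and DFOG 1 in 36.

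The small heat shock proteins include several best known from muscle. Of 7 measured, 1 rose and 1 fell in DFAT, and 3 rose and none fell in DFOG. The median change was 0.21 in DFAT and 0.87 in DFOG, the latter 0.08 with poly-A centring. HSPB8, which works with BAG3 in the disposal of damaged proteins, read 4.65, 4.90 and 4.53 in GC and 8.47, 8.34 and 8.32 in DFOG, a rise of 3.71 ± 0.36 (SE), 13.1-fold by these values (adjusted p = 2.39e-05). The GC level is among the lowest on the scale and may be background, so the fold may be a lower bound. It read 4.99, 5.12 and 5.55 in MA and 4.79, 6.31 and 5.18 in DFAT, which overlap (0.21 ± 0.33, SE). The lineages differed by -3.50 ± 0.49 (SE; adjusted p = 0.000398), and every DFOG array was above every array of the other groups.

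HSPB3 followed the same pattern at a lower size. It read 4.38, 4.64 and 4.41 in GC and 6.02, 6.52 and 6.50 in DFOG, a rise of 1.79 ± 0.23 (SE), 3.45-fold by these values (adjusted p = 0.000182). Here too the GC level may be background, so the fold may be a lower bound. HSPB3 read 5.15, 4.62 and 4.77 in MA and 4.96, 4.79 and 4.43 in DFAT (-0.12 ± 0.21, SE), and the lineages differed by -1.91 ± 0.31 (SE; adjusted p = 0.0011). HSPB1, or HSP27, an actin-binding small heat shock protein, rose in DFOG from 12.98, 12.47 and 12.39 to 13.69, 13.18 and 13.16 (0.82 ± 0.22, SE; adjusted p = 0.0187). Its change in DFAT was 0.30 ± 0.20 (SE). The DFOG call was lost without GC 2, GC 3 or DFOG 1 (0.56 to 0.75, adjusted p = 0.0636 to 0.22) and with the actin covariate.

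HSPB2, which lies with HSPB3 in a muscle complex, fell in DFAT. It read 8.16, 8.21 and 7.81 in MA and 6.41, 6.82 and 6.54 in DFAT, a change of -1.47 ± 0.21 (SE; adjusted p = 0.000297). The GC arrays, at 5.76, 6.53 and 6.34, overlapped DFOG, at 6.19, 6.02 and 6.001, and the lineages differed by -1.36 ± 0.32 (SE; adjusted p = 0.0101). HSPB7, the cardiovascular small heat shock protein, rose in DFAT, from 6.68, 6.30 and 6.21 in MA to 7.64, 9.97 and 8.27 (2.23 ± 0.45, SE, 4.70-fold; adjusted p = 0.00258). The DFAT arrays were far apart but all lay above MA, and the actin covariate ended the call. The change of HSPB7 in DFOG was 0.87 ± 0.50 (SE). HSPB6, also known as HSP20 and abundant in smooth muscle, and HSPB11 passed in neither lineage. HSPB6 read 9.47, 10.56 and 10.05 in MA, 9.46, 10.14 and 10.67 in DFAT, 7.32, 6.28 and 6.10 in GC and 7.92, 7.19 and 7.28 in DFOG, with changes of 0.06 and 1.01. The markers of smooth muscle and myofibroblasts were high on all DFAT and DFOG arrays, as given above, and the part of such a state in these values was not tested.

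The 4 BAG genes, of a family that includes nucleotide exchange factors of HSP70, all changed in DFAT, 2 upwards and 2 downwards, and 2 rose in DFOG. BAG1 read 9.94, 10.27 and 10.35 in MA and 9.06, 9.29 and 9.30 in DFAT (-0.98 ± 0.20, SE; adjusted p = 0.00262). It read 9.24, 8.91 and 8.69 in GC and 10.20, 9.68 and 9.80 in DFOG (1.02 ± 0.22, SE; adjusted p = 0.00539). Arrays did not overlap in either lineage, the difference was -1.997 ± 0.29 (SE; adjusted p = 0.000562), and the second BAG1 probe set was called the same way in both lineages (-1.10 and 0.93). BAG3, the HSF1-induced partner of HSPB8, read 11.02, 11.11 and 11.18 in MA and 9.97, 10.63 and 10.41 in DFAT (-0.76 ± 0.26, SE; adjusted p = 0.0446). It read 9.19, 8.46 and 8.13 in GC and 10.12, 9.82 and 9.81 in DFOG (1.38 ± 0.29, SE; adjusted p = 0.00499). The lineages differed by -2.14 ± 0.39 (SE, limma, adjusted p = 0.00228). The second BAG3 probe set moved the same way in each lineage but was called in neither. It averaged 9.25 in MA, 8.09 in DFAT, 7.38 in GC and 8.13 in DFOG. The DFAT call of BAG3 was lost without any one of MA 1, MA 2, MA 3, DFAT 1, DFAT 3, GC 2 or DFOG 1 (-0.80 to -0.58, adjusted p = 0.054 to 0.143). The DFOG calls of BAG1 and BAG3 were lost without DFOG 1 (0.79, adjusted p = 0.0798, and 1.22, adjusted p = 0.0574) and with the actin covariate.

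BAG5 rose in DFAT from 5.89, 6.48 and 6.29 to 6.98, 6.78 and 7.20 (0.76 ± 0.21, SE; adjusted p = 0.017), and its call was lost without MA 1 or DFAT 3 (0.60 to 0.66, adjusted p = 0.0631 to 0.0673). BAG6, which guides tail-anchored proteins to the endoplasmic reticulum, rose from 8.87, 9.04 and 9.30 to 9.36, 9.91 and 9.90 (0.65 ± 0.21, SE; adjusted p = 0.038). It was lost without MA 1, MA 2, DFAT 2, DFAT 3 or DFOG 1 (0.55 to 0.65, adjusted p = 0.0512 to 0.123), and its 2 other probe sets did not pass (-0.25 and 0.18). Both calls ended with the actin covariate, and neither gene passed in DFOG, at 0.55 and -0.13.

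**Figure D4:**
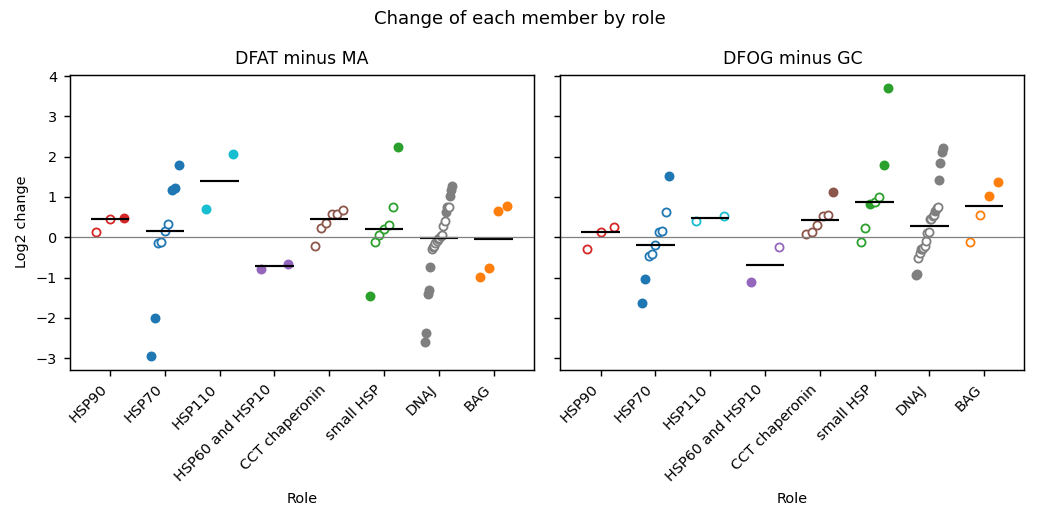
Log2 change of each member by role, DFAT minus MA on the left and DFOG minus GC on the right, with filled points for members past the test (limma, adjusted p under 0.05), open points for the others and a line at the median of each role. The small heat shock proteins have a median of 0.21 in DFAT and 0.87 in DFOG, both HSP60 and HSP10 genes lie below 0 in each panel, and 5 of the 6 CCT subunits lie above 0 in DFAT and all 6 in DFOG, a direction that turns in DFOG for the median with poly-A centring.

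The members were also sorted by where they act and by whether heat induces them. Of 6 measured members that act in the endoplasmic reticulum (HSPA5, HSP90B1, HSPA13, DNAJB9, DNAJB11 and DNAJC3), HSPA13 rose in DFAT, and in DFOG DNAJB11 rose and HSPA13 fell. The list of heat-inducible members, 11 of them measured, also holds HSPA8, which is mainly constitutive. In DFAT 3 of the 11 rose (HSPA8, HSPH1 and HSP90AA1) and 5 fell (HSPA6, DNAJB1, BAG3, HSPD1 and HSPE1), where 20.7% and 20.4% of all named genes rose and fell. In DFOG, 2 rose (HSPB1 and BAG3) and 1 fell (HSPE1), where 17.3% and 13.4% of named genes did. The median changes were -0.11 and 0.16. These counts rest on 1 probe set a gene: HSP70.2 counts as not called, although its 2 other probe sets fell in both lineages, and HSP90AA1 counts as a rise, although the average of its 5 probe sets changed by -0.20. HSPH1 and HSP90AA1 were lost with the actin covariate, so of the 3 rises in DFAT HSPA8 alone was kept there. Poly-A centring kept all 3 and added HSPB1 and DNAJA1, which are also on the list, as rises in DFAT. Of the falls in DFAT, HSPE1 was lost with the actin covariate, and BAG3, HSPD1 and HSPE1 with poly-A centring, which leaves HSPA6 and DNAJB1.

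Set side by side, 3 members rose in both lineages (DNAJB6, DNAJC24 and DNAJC5, where 8.35% of named genes and 5.91% of probe sets rose in both) and 2 fell in both (HSPE1 and DNAJA4, against 5.07% and 4.04%). HSPA13 rose in DFAT and fell in DFOG (1.6% of named genes and 1.44% of probe sets). HSPA12A, DNAJC6, BAG1 and BAG3 fell in DFAT and rose in DFOG (2.14% and 1.57%), and 22 members passed in neither. By the test of the difference between the 2 changes, 16 of the 55 differed, 5 with the more positive change in DFAT (HSPA13, HSPA8, HSPA4, HSPA2 and DNAJB14) and 11 with the more negative one. Among named genes 29.1% differed, 13.2% and 15.9% in these directions, and 23.3% of all probe sets, 11.6% and 11.7%. Without MA 2, 14 members differed, 3 of them with the more positive change in DFAT, beside 19.3% of all probe sets. With poly-A centring 36 members differed, 33 towards the more positive change in DFAT and 3 towards the more negative one. Over all probe sets 69.8% differed, and the median rose from -0.05 to 1.37. BAG1, BAG3, DNAJB2, DNAJB4, DNAJC5, HSPA6, HSPB2 and HSPB3 lost the call. That centring also ended the DFAT calls of BAG1, BAG3, DNAJA4, DNAJB2, DNAJC19, HSPB2, HSPD1 and HSPE1 and the DFOG calls of BAG1, BAG3, CCT6A, DNAJB11, DNAJB6, DNAJC24, HSPA12A and HSPB1. Taking the average of all probe sets of a gene ended the DFAT calls of BAG5, BAG6, DNAJB14, DNAJB6 and HSP90AA1, the DFOG calls of DNAJA4 and HSPA13, and the difference between lineages of DNAJB14. It also ended the calls of BAG5 and BAG6 in MA against GC.

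**Figure D5:**
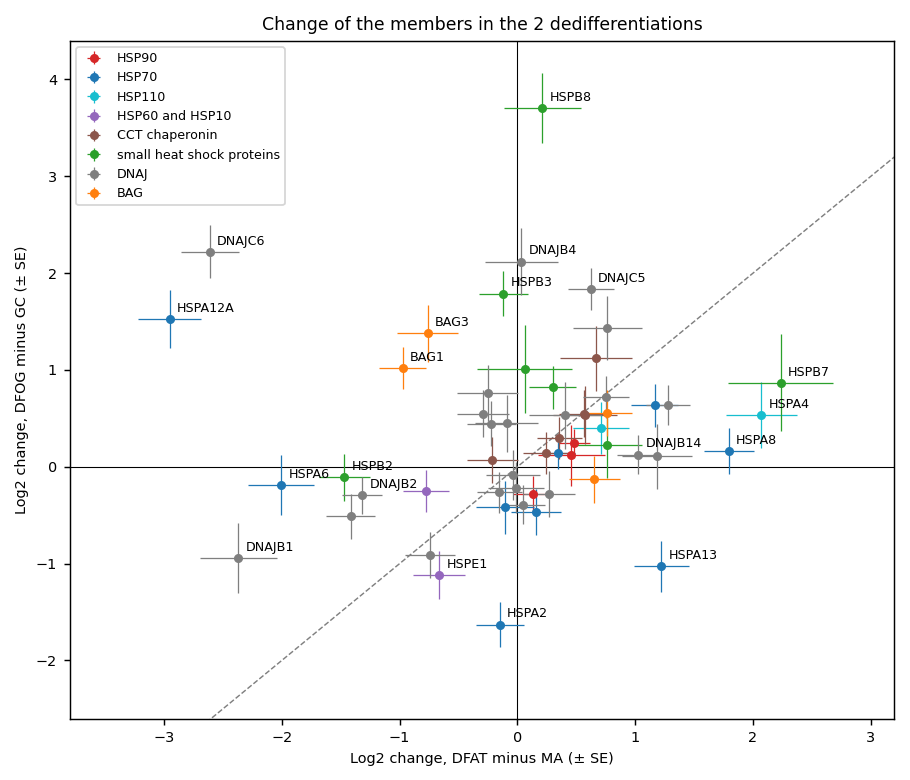
Log2 change of each of the 55 members in DFAT against MA on the horizontal axis and in DFOG against GC on the vertical axis, as points coloured by role with bars of 1 SE and a dashed line where both changes are equal. HSPA12A and DNAJC6 lie at upper left, HSPA13 at lower right, HSPB8 at the top near 0.21 on the horizontal axis, and HSPA8 and HSPA4 at right, at 0.16 and 0.53 on the vertical axis.

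The isolated cell types differed in 26 of the 55 members, with 14 higher in MA and 12 higher in GC. Of named genes 49.4% passed in this comparison, 26.8% higher in MA and 22.6% lower, and 40.5% of probe sets, 20.7% higher and 19.7% lower. The 5 with the largest excess in MA were HSPA12A at 5.27 (38.6-fold by these values, and possibly more, since GC at 3.89 may be background; adjusted p = 6.29e-08), HSPB6 at 3.46 (11.0-fold; adjusted p = 3.91e-05), DNAJB4 at 3.37 (10.3-fold; adjusted p = 5.45e-06), DNAJC6 at 3.17 (9.02-fold; adjusted p = 1.46e-06) and BAG3 at 2.51 (5.70-fold; adjusted p = 1.55e-05). The 5 with the largest excess in GC were HSPA13 (-2.20; adjusted p = 1.96e-05), HSPA8 (-1.66; adjusted p = 7.78e-05), HSPA4 (-1.45; adjusted p = 0.0024), DNAJC9 (-1.37; adjusted p = 0.00341) and BAG6 (-1.33; adjusted p = 0.000435). In all 10 the arrays of MA and GC did not overlap on these probe sets, which adds no separate support, since the test on the same arrays picked them. The excess of BAG6 in GC rests on 1 probe set. Its others read 6.99 in MA and 6.38 in GC, and 6.28 and 6.64. The average of its probe sets changed by -0.36 and did not pass (limma, adjusted p = 0.322). DNAJC9 read 7.66, 7.30 and 7.30 in GC and BAG6 10.79, 10.22 and 10.19. DNAJC6 in GC, at 4.59, may be background too, so its fold may be a lower bound. With poly-A centring 5 members were higher in MA and 41 in GC. Over all probe sets 84.2% passed, and the median went from 0.07 to -1.27. This comparison shares its arrays with both dedifferentiation comparisons. The macrophage markers, 9 of 9 measured, were also higher in MA than in GC by the test.

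The cultured cells differed in 8 of the 55 members, 3 higher in DFAT and 5 higher in DFOG. Of named genes 10.4% passed, 4.86% higher in DFAT and 5.5% lower, and 8% of probe sets, 3.7% higher and 4.31% lower. Higher in DFAT were HSPB6 (2.51 ± 0.45, SE; adjusted p = 0.00477), HSPA2 (1.32 ± 0.23, SE; adjusted p = 0.00402) and DNAJB4 (1.28 ± 0.34, SE; adjusted p = 0.0435). Higher in DFOG were HSPB8 (-2.97 ± 0.36, SE; adjusted p = 0.00034), DNAJC6 (-1.66 ± 0.27, SE; adjusted p = 0.00258), HSPB3 (-1.54 ± 0.23, SE; adjusted p = 0.00142), HSPB1 (-1.31 ± 0.22, SE; adjusted p = 0.00322) and DNAJC5 (-0.89 ± 0.22, SE; adjusted p = 0.0286). Of these 8, 4 are small heat shock proteins. Arrays of the cultured groups did not overlap in any of the 8, which adds no separate support, since the test on the same arrays picked them. Without DFOG 1, which leaves 1 DFOG sample, fewer members and a smaller share of all probe sets passed. DNAJB4 was lost without any one of MA 1, MA 2, MA 3, DFAT 1, DFAT 2, GC 2 or DFOG 1 (1.06 to 1.39, adjusted p = 0.0628 to 0.155), DNAJC5 without DFAT 1, DFAT 2 or DFOG 1 (-0.85 to -0.81, adjusted p = 0.0678 to 0.183), and HSPB1 without DFOG 1 (-1.05, adjusted p = 0.0541).

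Over the 4 groups, the group mean was highest in DFOG for 18 members, in MA for 17, and in DFAT and GC for 10 each. It was lowest in MA for 23, in GC for 19, in DFOG for 7 and in DFAT for 6. This order was not counted over all named genes, so these counts are not set against a background. For 24 members with several probe sets, all probe sets gave the same call in 14 genes in DFAT and 16 genes in DFOG, and in HSP90AA1 alone were probe sets called in opposite directions, in DFAT.

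Genes that work with the members were read from lists. Of the heat shock factors and their regulators, 4 of 7 listed genes were measured. HSF1, the master regulator, passed in neither lineage (9.09 ± 0.06 in MA, 8.91 ± 0.19 in DFAT and 8.76 ± 0.20 in GC, SD, n = 3 each, and 8.94 ± 0.47 in DFOG, SD, n = 2). HSBP1, which binds HSF1, rose by 0.63 in DFAT (adjusted p = 0.0113) and 1.35 in DFOG (adjusted p = 0.000252), and HSF2 fell by 0.64 on the log2 scale in DFOG (adjusted p = 0.0359). Of 17 measured co-chaperones of HSP90 and HSP70, 2 rose and 4 fell in DFAT, and none rose and 5 fell in DFOG. FKBP5, a steroid receptor co-chaperone and glucocorticoid target, fell in both, by -2.002 (adjusted p = 0.00122) and -1.22 (adjusted p = 0.0459). HSPBP1, an HSP70 nucleotide exchange factor, rose in DFAT by 1.53 (adjusted p = 0.000273) and STIP1, the HSP70 to HSP90 adaptor, by 1.06 (adjusted p = 0.00328), while TTC1 changed by -1.19. In DFOG, TOMM34 changed by -1.24, SUGT1 by -0.90 and PPID by -0.72, all past the test.

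Of 11 prefoldin and chaperonin cofactors, 4 rose in DFAT (PFDN4, TBCB, TBCC and PDCL3, by 0.43 to 0.75), and in DFOG PDCL3 and TBCB rose (0.67 and 0.58) and VBP1 fell (-0.54). Of 6 measured actin and tubulin genes, whose products CCT folds, 3 rose in DFAT and 1 in DFOG, and none fell. TUBA1B rose in DFAT by 2.28 (adjusted p = 9.05e-07), from 11.23, 11.53 and 11.57 to 13.72, 13.78 and 13.67, TUBB by 2.10 and ACTG1 by 1.01, and ACTB rose in DFOG by 0.85. The TUBA1B arrays in GC, at 13.81, 13.88 and 13.53, and in DFOG, at 13.999, 13.95 and 13.95, lay near those of DFAT, so MA again stood apart.

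Of 14 endoplasmic reticulum folding genes, 8 rose and 2 fell in DFAT, and 1 rose in DFOG. The collagen chaperone SERPINH1 rose in DFAT by 1.83 (adjusted p = 3.81e-05), the disulfide isomerase PDIA3 by 1.60, HYOU1, an endoplasmic reticulum HSP110 relative, by 1.27 and MANF by 1.12. SDF2L1, which works with DNAJB11, rose in DFOG by 2.37 (adjusted p = 0.00032). Among 5 measured genes of the unfolded protein response, asparagine synthetase ASNS rose in both lineages (2.34 and 1.85), PPP1R15A fell in both (-1.25 and -2.41), and XBP1 rose in DFOG (0.77). Of 6 mitochondrial chaperones and proteases, YME1L1 rose in DFAT (0.91) and LONP1 (-1.12) and GRPEL1 (-0.84) fell, while none passed in DFOG. CRYAB, the small heat shock protein alpha B-crystallin, rose in DFOG by 2.30 (adjusted p = 0.0043), from 5.12, 5.28 and 5.18 in GC to 7.39, 7.76 and 7.43, and read 11.70, 11.25 and 10.75 in MA and 10.24, 12.33 and 11.53 in DFAT.

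Immediate early genes, which respond within minutes to handling and growth signals, were read beside the heat-inducible members. Of 11 measured, 9 fell and 1 rose in DFAT, and 6 fell and 3 rose in DFOG. FOS fell by 5.07 on the log2 scale in DFAT (adjusted p = 4.09e-06) and by 5.17 in DFOG (adjusted p = 1.3e-05). BTG2 changed in DFAT by -3.97, ZFP36 by -3.35 and JUN by -2.91. ATF3 changed in DFOG by -3.27, and IER3 and MYC rose by 3.03 and 3.01. FOS read 13.29, 13.29 and 13.39 in MA, 7.03, 8.67 and 9.05 in DFAT, 13.48, 13.49 and 13.05 in GC and 7.85, 8.50 and 8.48 in DFOG. It was thus high on every array of isolated cells and low on every array of cultured cells. HSPA6 and DNAJB1 fell beside it in DFAT, and the part of handling in those falls was not tested.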

How the data were processed

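The authors deposited log2 expression levels. The submitters' processing notes name RMA, a method that subtracts background, gives the arrays one shared distribution and pools the probes of a probe set; version and settings are not given in the sources used here. Without detection calls, background and low expression look alike. RNA was amplified from the 3′ end, per the labels' protocols. Of 24123 probe sets, 124 controls were left out of the tests. Of the remaining 23999, 10069 had 1 symbol in the platform annotation, 198 several and 13732 none here.

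limma 3.58.1 in R 4.3.3 fitted 1 mean per group over 11 samples (12 arrays, with DFOG replicates 2 and 3 averaged) with 7 residual degrees of freedom. Tests were moderated and two-sided, with Benjamini-Hochberg adjustment over all 23999 probe sets and a threshold of 0.05. The fit was tested on simulated data. Figures were drawn with Python 3.11.15, pandas 2.3.3, numpy 2.4.6 and matplotlib 3.10.9. The members, lists and naming rule were chosen with earlier results of these data known. The rule gives array values for the 10 largest rises and falls per dedifferentiation, the 6 largest differences between lineages and the 5 largest of the other contrasts, per direction, and up to 4 genes a list. Others named were chosen after their values were seen. Lymphocyte, erythrocyte, endothelial, skeletal muscle, theca and oocyte markers were also read. No sequence or coordinate is given, since the array's genome build is not given in the sources used here. Alternatives are those of the closing section.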

Additional observations from a re-analysis of the deposited data

Results flagged for a closer look

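The change in DFAT against MA differed from the change in DFOG against GC in 16 of the 55 members by limma's test of the difference (adjusted p under 0.05), where 29.1% of all named genes differed. The differences below are the change in DFAT minus the change in DFOG, on the log2 scale. The change was more negative in DFAT for DNAJC6 (-4.83), HSPA12A (-4.48), HSPB8 (-3.50), BAG3 (-2.14), DNAJB4 (-2.08), BAG1 (-1.997), HSPB3 (-1.91), HSPA6 (-1.82), HSPB2 (-1.36), DNAJC5 (-1.22) and DNAJB2 (-1.02). It was more positive in DFAT for HSPA13 (2.25), HSPA8 (1.63), HSPA4 (1.53), HSPA2 (1.48) and DNAJB14 (0.90). DNAJC6, HSPA12A, HSPA13, HSPA2, HSPA8 and HSPB8 passed under every alternative that measured them. DNAJC6, HSPA12A, BAG1 and BAG3 passed in opposite directions in the 2 lineages, as did HSPA13 the other way round.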

How the results depend on the processing

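Of the 26 members called in DFAT against MA, 6 kept their call under every alternative that measured them (DNAJB1, DNAJC6, HSPA12A, HSPA4, HSPA6 and HSPA8), and 7 of the 17 in DFOG against GC did (DNAJB4, DNAJC5, DNAJC6, HSPA2, HSPB3, HSPB8 and HSPE1). With each array left out in turn, the count of members called was 19 to 27 in DFAT against MA (10 to 15 higher, 9 to 12 lower) and 8 to 20 in DFOG against GC (6 to 16 higher, 2 to 5 lower). It was 14 to 18 for the difference between lineages (3 to 5 higher, 11 to 13 lower), 22 to 30 in MA against GC (13 to 16 higher, 8 to 14 lower) and 5 to 10 in DFAT against DFOG (2 to 4 higher, 3 to 6 lower).

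Centring on poly-A controls gave 27 higher and 4 lower members in DFAT against MA, 5 and 16 in DFOG against GC, 36 differences between lineages (33 higher, 3 lower) and 46 in MA against GC (5 higher, 41 lower). In that order, 34.3%, 43.4%, 69.8% and 84.2% of all probe sets passed. The means of the controls were 8.29 ± 0.18 in MA, 7.66 ± 0.43 in DFAT and 6.95 ± 0.30 in GC (SD, n = 3 each) and 7.74 ± 0.02 in DFOG (SD, n = 2). In DFOG against GC the centring reversed DNAJB6 (-0.15), DNAJC24 (-0.064), PDCL3 (-0.12), TBCB (-0.21) and XBP1 (-0.019). It reversed the difference between lineages of DNAJB2 (0.40), DNAJC5 (0.21) and HSPB2 (0.061), and MA against GC of BAG1 (-0.10), DNAJA2 (-0.48), DNAJB2 (-0.75), DNAJC2 (-0.46) and HSPD1 (-0.57). The actin covariate gave 14 members in DFAT against MA, 3 higher, and 11 in DFOG against GC, 6 higher, beside 21.6% and 18% of all probe sets. Averaging all probe sets of a gene gave 9 higher in DFAT against MA and reversed HSP90AA1 (-0.20). In DFAT against DFOG, 5 were higher with DFOG replicates 2 and 3 separate and 5 with array weights, and probe sets at or above the median level, which hold 50 of the 55 members, gave 5 called, 2 lower. The causes were not tested.

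With the replicate number as a block, 24 of the 26 calls in DFAT against MA were kept (BAG3 and BAG6 were lost) and 4 were gained (CCT6A, CCT8, TCP1 and DNAJB11). In DFOG against GC 16 of the 17 were kept (DNAJB6 was lost) and DNAJB1 was gained. Same-numbered arrays deviated together with correlations of 0.10, 0.17 and 0.13 in MA and DFAT, and 0.60, 0.51 and 0.36 in GC and DFOG, where DFOG 2 and 3 are 1 sample, so the pairing is not established. A block for number 1 in the granulosa groups alone was added after seeing the data. No other alternative moved a count of calls by over 1.5 times. The number of arrays limits the precision.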

Other observations

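Marker lists of other cell types were read as the mean level of their measured genes on each array. The endothelial list (8 of 9 genes measured) lay between 5.50 and 6.11 in MA, 5.17 and 5.35 in DFAT, 4.55 and 4.61 in GC and 5.24 and 5.28 in DFOG. The skeletal muscle list (7 of 11) lay between 4.54 and 4.62 in MA, 4.81 and 5.41 in DFAT, 4.18 and 4.26 in GC and 4.49 and 4.61 in DFOG. The lymphocyte list (7 of 9) lay between 4.35 and 4.65 in MA and between 4.05 and 4.25 over the other groups. The erythrocyte list (2 of 5) lay between 7.10 and 7.30 in MA, 6.54 and 6.87 in DFAT, 7.07 and 7.45 in GC and 6.86 and 6.92 in DFOG. The theca cell and oocyte list (7 of 7) lay between 5.72 and 5.90 in GC and between 5.02 and 5.64 over the other groups.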
